A study of Arabidopsis thaliana with 48 samples.

Results

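Described here are 43 nuclear genes of Arabidopsis thaliana that encode the light-harvesting antenna proteins and subunits of photosystems I and II. They were chosen by gene name and not by a measured value, but with earlier results of these data known. They comprise 15 LHCB genes for the photosystem II antenna, 6 LHCA genes for the photosystem I antenna, 12 PSA genes for photosystem I subunits, 9 PSB genes for photosystem II subunits, and PSBS. They are 43 of the 33553 genes in the authors' deposited tables, and 56 of the 42818 transcripts. Each gene was represented by the transcript with the highest mean level over both genotypes, and all 43 were tested by the authors.

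RNA was sequenced from wild-type (WT) seedlings of the accession Col-0 and from seedlings of the mutant acc1-5 in Col-0, with 3 libraries for each genotype. ACC1 is the cytosolic acetyl-CoA carboxylase, which turns acetyl-CoA into malonyl-CoA, and the study asked how cytosolic acetyl-CoA bears on histone acetylation. All seedlings were 12 days old and had grown on MS plates with 16 h of light and 8 h of dark. A spray with DMSO or 20 µM β-estradiol from day 11, for 24 h, is named for every sample of the series, also for those of RNA, without saying which seedlings received it. Whole seedlings were used, so leaf, stem and root RNA were mixed, and nothing in the labels says that the libraries of a genotype came from separately grown cultures.

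Antenna proteins bind chlorophyll and carotenoids and pass absorbed light energy to the reaction centres. They are made in the cytosol from nuclear genes, imported into the plastid and inserted into the thylakoid membrane, where LHCB1, LHCB2 and LHCB3 form trimers, LHCB4, LHCB5 and LHCB6 link the trimers to photosystem II, and the LHCA proteins form a belt on photosystem I. The reaction centre proteins themselves are encoded in the plastid genome, while the nuclear PSA and PSB genes encode subunits around them, among them the docking sites of the electron carriers and the proteins that shield the oxygen-evolving cluster. Transcripts of these nuclear genes are abundant in green tissue, and they are known to follow light, the circadian clock and signals from the plastid.

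Levels are given in FPKM, which corrects fragment counts for the length of the transcript and the size of the library, so they can be compared between genes. The authors deposited 1 FPKM per genotype with a lower and an upper bound, and these bounds, printed as a range after each level, are the only error of a single level here. A gene is said to have fallen or risen where the q-value (the p-value adjusted by the authors over all tested transcripts) in the authors' deposited table was under 0.05. The log2 ratio is that of acc1-5 over WT, so a negative value means a lower level in acc1-5. Across all 20509 tested genes the median log2 ratio was -0.01, with an interquartile range from -0.31 to 0.31. The transcript of ACC1 itself stood at 33.1 FPKM in WT and 33.4 FPKM in acc1-5, with a q-value of 0.991 in the authors' deposited table, so its level does not tell the genotypes apart.

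The light-harvesting and photosystem genes were lower in acc1-5 almost throughout. In the authors' deposited table, calls were made for 14 of the 43 genes, or 32.6%, all of which fell; none rose and 29 were not called. Over all tested genes 19.9% were called, made up of 9.04% that fell and 10.9% that rose, and among the 1533 tested genes with a mean level of at least 100 FPKM, where most of these genes lie, 21.4% fell and 10.6% rose. The value was lower in acc1-5 for 42 of the 43 genes, against 50.7% of all tested genes and 53.6% of those at 100 FPKM or more. The median log2 ratio over the 43 genes was -0.67, a level 1.59-fold lower, with an interquartile range from -0.78 to -0.60 and a full range from -1.11 to 0.03.

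The differences were moderate in size and similar from gene to gene. A level at least 1.5-fold lower was found for 34 of the 43 genes, or 79.1%, against 12.9% of all tested genes and 22.2% of those at 100 FPKM or more. For 32 genes the unadjusted p-value in the authors' deposited table was under 0.05 and the level was lower, where 14.6% of all tested genes met the same limits. At 100 FPKM or more, 440 of the 1533 tested genes met them. The bounds of the genotypes overlapped for all 43 genes, while bounds did not overlap for 1.63% of all tested genes on the lower side and 5.24% on the higher side. At a stricter q limit of 0.01 the number that fell was 5 of 43 (5.7% of all tested genes), and at a looser limit of 0.1 it was 21 of 43 (11.3% of all tested genes). The size of the difference depended on the scaling: with both FPKM columns brought to the same distribution by quantile normalization, the median over the 43 genes was -0.38 and 40 of the 43 were lower, LHCB1.3 and LHCB1.5 being at 0 because each kept its rank. In whole seedlings, fewer green cells and less of these RNAs per green cell cannot be told apart.

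**Figure D1:**
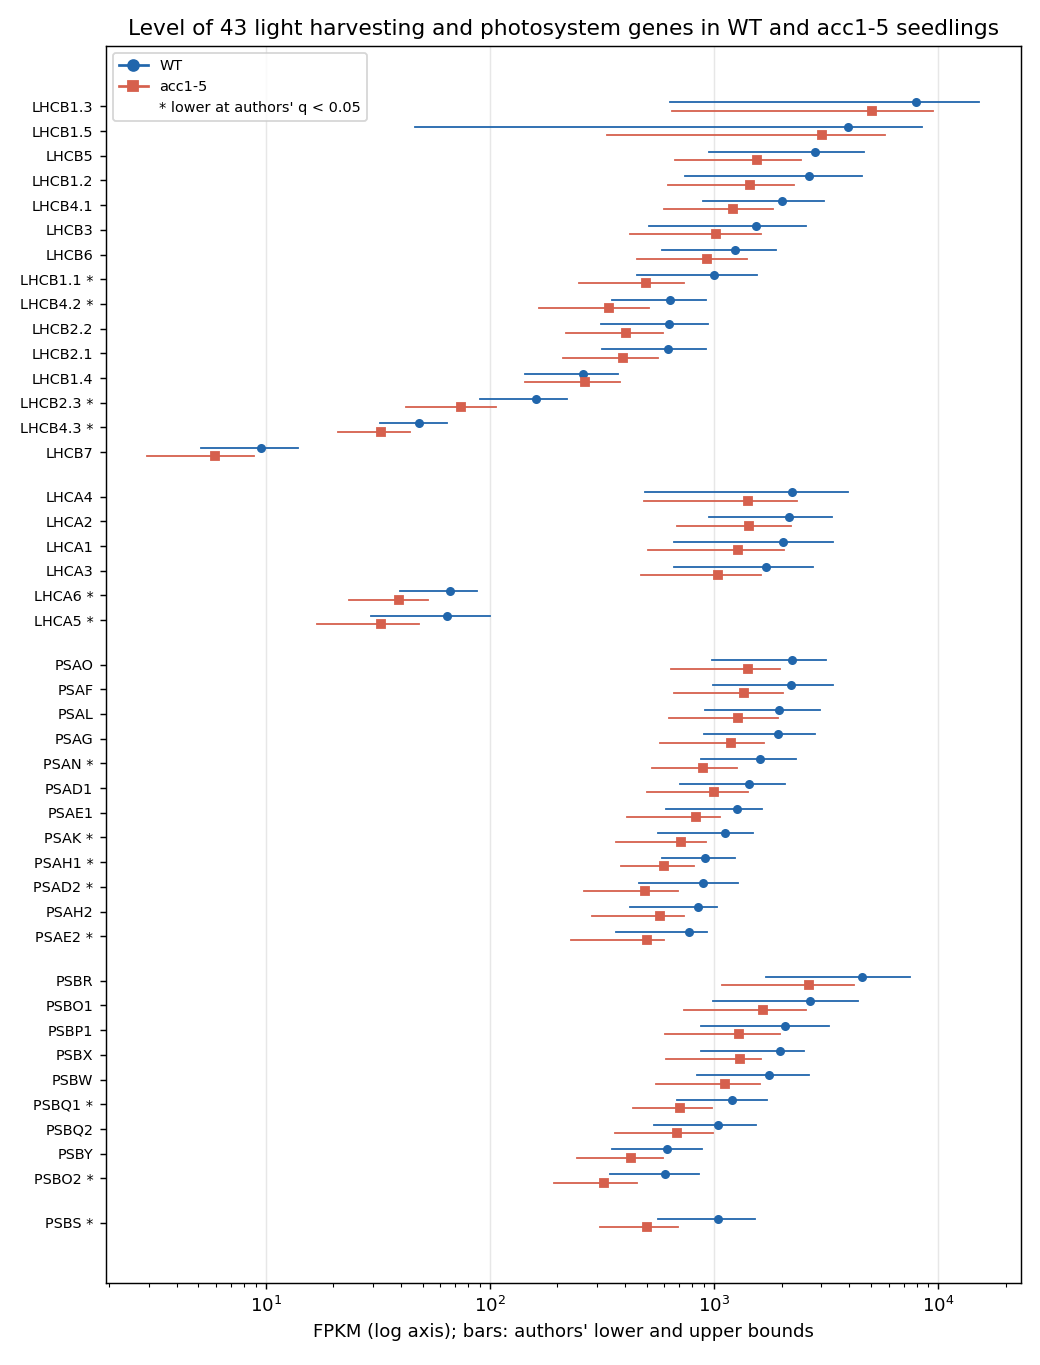
Level of each gene in FPKM on a log axis in WT (blue circles) and acc1-5 (red squares), with the authors' lower and upper bounds as bars and an asterisk where the gene fell at q < 0.05. In WT the levels run from 9.51 FPKM for LHCB7 to 7928 FPKM for LHCB1.3, and the acc1-5 value lies to the left of the WT value for every gene but LHCB1.4.

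Within the photosystem II antenna, 4 of the 15 LHCB genes fell, or 26.7%, against 9.04% of all tested genes and 21.4% of those at 100 FPKM or more. The median log2 ratio of the 15 was -0.67. LHCB1.1 to LHCB1.5 encode LHCB1, the main protein of the trimers. LHCB1.1, LHCB1.2 and LHCB1.3 lie next to each other on chromosome 1, between 10472280 and 10479048 in the TAIR10 build. The other two copies, LHCB1.4 and LHCB1.5, lie on chromosome 2.

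LHCB1.3 (AT1G29930) had the highest level of all 43 genes, with 7928 FPKM (638 to 15191) in WT and 5066 FPKM (649 to 9474) in acc1-5. It ranked second among all genes in both genotypes. Its log2 ratio was -0.65 with a q-value of 0.720 in the authors' deposited table, so a ratio near the median of the 43 was not called in the most abundant gene. LHCB1.5 (AT2G34420) followed with 3952 FPKM (46.5 to 8473) in WT and 3036 FPKM (332 to 5759) in acc1-5, a log2 ratio of -0.38. LHCB1.2 (AT1G29910) stood at 2651 FPKM (741 to 4558) in WT and 1442 FPKM (620.4 to 2263) in acc1-5, a log2 ratio of -0.88. For these highly expressed copies the lower bound in WT reached below the level in acc1-5, as it also did for LHCB1.1, which fell. The q-values in the authors' deposited table were 0.838 for LHCB1.5 and 0.213 for LHCB1.2.

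LHCB1.1 (AT1G29920, chr1:10474784-10475959) was the one copy of LHCB1 that fell. Its level went from 1004 FPKM (451 to 1556) in WT to 495 FPKM (251 to 736) in acc1-5, a log2 ratio of -1.02 with a q-value of 0.0193 in the authors' deposited table. LHCB1.4 (AT2G34430, chr2:14524756-14525763) was the one gene of the 43 whose value was not lower: 259 FPKM (143 to 373) in WT and 265 FPKM (144 to 382) in acc1-5, a log2 ratio of 0.03 with a q-value of 0.973 in the authors' deposited table. The bounds of its genotypes nearly coincided. As a share of the summed LHCB1 level, LHCB1.1 made up 6.35% in WT and 4.81% in acc1-5, LHCB1.4 made up 1.64% and 2.57%, and LHCB1.5 made up 25.0% and 29.5%. The copies of LHCB1 are very alike in sequence, so reads could be divided between them in error and these shares are uncertain, more so than the sum over all copies, which was 15794 FPKM in WT and 10304 FPKM in acc1-5.

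LHCB2 is the trimer protein whose phosphorylation moves the antenna between the photosystems. Its gene LHCB2.3 (AT3G27690, chr3:10255947-10257011) had the most negative log2 ratio of the 43, -1.11, falling from 161 FPKM (90.5 to 219.5) in WT to 74.5 FPKM (42.1 to 107) in acc1-5 with a q-value of 0.000746 in the authors' deposited table. The other copies, LHCB2.1 and LHCB2.2, were several times more abundant and almost equal to each other, with 622 and 627 FPKM in WT and 391 and 406 FPKM in acc1-5. Their q-values in the authors' deposited table were 0.0744 and 0.113, so neither was called. LHCB2.3 made up 11.4% of the LHCB2 level in WT and 8.56% in acc1-5. LHCB2.1 and LHCB2.2 are close copies of each other, and their separate values carry the same uncertainty as those of LHCB1. LHCB3, which completes some of the trimers and has a single gene, stood at 1536 FPKM (510.3 to 2563) in WT and 1018 FPKM (422 to 1613) in acc1-5, with a q-value of 0.402 in the authors' deposited table.

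The monomeric antenna proteins LHCB4 (CP29), LHCB5 (CP26) and LHCB6 (CP24) sit between the trimers and the photosystem II core. LHCB4.2 (AT3G08940, chr3:2717675-2722624) fell from 637 FPKM (351 to 922) to 338 FPKM (166 to 510.5), a log2 ratio of -0.91 with a q-value of 0.0121 in the authors' deposited table. LHCB4.3 (AT2G40100, chr2:16745653-16747400), the weakest of the LHCB4 genes, fell from 48.4 FPKM (32.2 to 64.6) to 32.5 FPKM (20.9 to 44.1), a log2 ratio of -0.58 with a q-value of 0.0386 in the authors' deposited table. It is the gene with the smallest decrease among the 14 that fell. LHCB4.1, the most abundant of the LHCB4 genes, stood at 2001 FPKM (895 to 3085) in WT and 1216 FPKM (598 to 1833) in acc1-5 and was not called. LHCB5 was the third most abundant LHCB gene, with 2825 FPKM (949 to 4684) and 1558 FPKM (669 to 2435), a log2 ratio of -0.86. Its q-value in the authors' deposited table was 0.195, although its log2 ratio lay beyond the median of the genes that fell. LHCB6 had 1234 and 928 FPKM, a log2 ratio of -0.41 with a q-value of 0.485 in the authors' deposited table. LHCB7 was the weakest of all 43 genes, with 9.51 FPKM (5.11 to 13.9) in WT and 5.91 FPKM (2.96 to 8.85) in acc1-5, and a q-value of 0.0804 in the authors' deposited table.

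In the photosystem I antenna the calls, more than the log2 ratios, differed with abundance. Of the 6 LHCA genes 2 fell, or 33.3%, against 9.04% of all tested genes and 21.4% of those at 100 FPKM or more. LHCA1 to LHCA4 build the antenna belt, and their levels lay close together, from 1709 to 2232 FPKM in WT and from 1046 to 1437 FPKM in acc1-5, with LHCA4 the highest and LHCA3 the lowest in WT. None of these 4 genes was called, although all 4 were lower, with log2 ratios from -0.71 for LHCA3 to -0.58 for LHCA2. LHCA5 and LHCA6 are minor proteins that link photosystem I to the chloroplast NDH complex, which takes part in cyclic electron flow, and both genes fell. The main transcript of LHCA5 (AT1G45474, chr1:17179302-17182957) went from 64.6 FPKM (29.4 to 99.7) to 32.7 FPKM (16.8 to 48.4), a log2 ratio of -0.98 with a q-value of 0.0190 in the authors' deposited table. A second LHCA5 transcript of similar level had 50.1 FPKM (19.2 to 80.5) and 29.3 FPKM (12.7 to 45.8), a log2 ratio of -0.77. It was not called, with a q-value of 0.175 in the authors' deposited table. LHCA6 (AT1G19150, chr1:6612749-6613972) went from 66.2 FPKM (39.6 to 87.1) to 39.5 FPKM (23.4 to 53.0), a log2 ratio of -0.75 with a q-value of 0.00195 in the authors' deposited table. That ratio was close to the -0.71 of LHCA3, whose bounds were wider relative to its level. The acc1-5 level of LHCA5 lay within the bounds of its WT level and that of LHCA6 just below them.

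Of the 12 nuclear genes for photosystem I subunits 5 fell, or 41.7%, against 9.04% of all tested genes and 21.4% of those at 100 FPKM or more. All 12 were lower, with a median log2 ratio of -0.63 and a range from -0.85 to -0.52. In WT they lay between 772 FPKM for PSAE2 and 2222 FPKM for PSAO, a narrower range than that of the antenna genes. PSAD and PSAE form the stromal side of photosystem I, where ferredoxin docks. PSAD2 (AT1G03130, chr1:753307-754198) fell from 889.6 FPKM (462 to 1282) to 492 FPKM (262 to 691), a log2 ratio of -0.85 with a q-value of 0.00729 in the authors' deposited table. Its paralog PSAD1 had 1430.5 FPKM (702 to 2069.9) and 995 FPKM (501 to 1415), the least negative log2 ratio of the class at -0.52, with a q-value of 0.187 in the authors' deposited table. PSAD2 thus made up 38.3% of the PSAD level in WT and 33.1% in acc1-5.

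The PSAE and PSAH pairs lay on either side of the limit for a call with hardly any difference in size. PSAE2 (AT2G20260, chr2:8736734-8739677) fell from 772 FPKM (363 to 926) to 504 FPKM (231 to 599.6), a log2 ratio of -0.62, and PSAE1 had 1259.7 FPKM (609.6 to 1642) and 830.3 FPKM (408 to 1063), a log2 ratio of -0.60. Their q-values in the authors' deposited table were 0.0492 and 0.0610. PSAH is part of the site at which phosphorylated LHCB proteins dock on photosystem I. PSAH1 (AT3G16140, chr3:5466246-5469481) fell from 913 FPKM (583 to 1243) to 599 FPKM (385 to 813), a log2 ratio of -0.61, while PSAH2 had 849 FPKM (421 to 1031) and 573 FPKM (286 to 734), a log2 ratio of -0.57. Their q-values in the authors' deposited table were 0.0267 and 0.0510, so PSAH2 was the gene just outside the limit and PSAE2 the gene just inside it. The share of each paralog in its pair was nearly the same in both genotypes, 62.0% and 62.2% for PSAE1 and 51.8% and 51.1% for PSAH1.

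Among the single-copy photosystem I genes, PSAN and PSAK fell. PSAN (AT5G64040, chr5:25628588-25629615) encodes a subunit on the lumen side and fell from 1600.2 FPKM (872 to 2329) to 896 FPKM (526 to 1267), a log2 ratio of -0.84 with a q-value of 0.0132 in the authors' deposited table. PSAK (AT1G30380, chr1:10722197-10723247), a membrane subunit at the antenna side, fell from 1118 FPKM (561 to 1495) to 708 FPKM (364 to 922), a log2 ratio of -0.66 with a q-value of 0.0307 in the authors' deposited table. PSAF, where plastocyanin docks, PSAG, which helps to hold the antenna belt, and PSAL and PSAO, which with PSAH form the docking site of the mobile antenna, were the 4 most abundant photosystem I subunit genes. They stood between 1932 and 2222 FPKM in WT and between 1192 and 1415 FPKM in acc1-5. None of these 4 was called, with q-values in the authors' deposited table of 0.143 for PSAF, 0.0754 for PSAG, 0.219 for PSAL and 0.119 for PSAO.

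Of the 9 nuclear genes for photosystem II subunits 2 fell, or 22.2%, a share close to the 21.4% of all tested genes at 100 FPKM or more, where all 9 lie. All 9 were lower, with a median log2 ratio of -0.68. Both genes that fell encode proteins of the oxygen-evolving complex, the extrinsic proteins PSBO, PSBP and PSBQ that cover the manganese cluster on the lumen side. PSBO2 (AT3G50820, chr3:18890876-18892426) fell from 605 FPKM (343 to 858) to 323 FPKM (193 to 452), a log2 ratio of -0.91 with a q-value of 0.00138 in the authors' deposited table. PSBO1, the main PSBO gene, had 2683 FPKM (991 to 4373) and 1660.4 FPKM (737 to 2581), a log2 ratio of -0.69 with a q-value of 0.303 in the authors' deposited table. PSBO2 made up 18.4% of the PSBO level in WT and 16.3% in acc1-5.

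PSBQ1 (AT4G21280, chr4:11334402-11335773) fell from 1199.9 FPKM (685 to 1715) to 704 FPKM (433 to 974), a log2 ratio of -0.77 with a q-value of 0.0178 in the authors' deposited table. Its paralog PSBQ2 had 1037 and 680.4 FPKM, a log2 ratio of -0.61 with a q-value of 0.108 in the authors' deposited table, and was not called. PSBP1 stood at 2065 FPKM in WT and 1289 FPKM in acc1-5 with a q-value of 0.192 in the authors' deposited table. PSBR, a small protein needed for a stable oxygen-evolving complex, was the second most abundant of the 43 genes in WT and the third in acc1-5, with 4589 FPKM (1699 to 7475) in WT and 2645 FPKM (1085 to 4195) in acc1-5. Its log2 ratio was -0.79 and its q-value was 0.149 in the authors' deposited table. The small membrane subunits PSBW, PSBX and PSBY had log2 ratios of -0.66, -0.58 and -0.54, and their q-values in the authors' deposited table, from 0.0816 to 0.101, did not reach the limit.

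PSBS (AT1G44575, chr1:16871696-16873383) belongs to neither antenna nor core: it senses the acidity of the thylakoid lumen and switches on the harmless loss of excess light energy as heat. It fell from 1041 FPKM (563 to 1519) in WT to 499.6 FPKM (309.8 to 689.7) in acc1-5, a log2 ratio of -1.06 with a q-value of 0.000746 in the authors' deposited table. Among the 43 genes, LHCB2.3 alone had a more negative log2 ratio, and both held the smallest p-value in the authors' deposited table, 5e-05, which 1697 tested transcripts share.

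**Figure D2:**
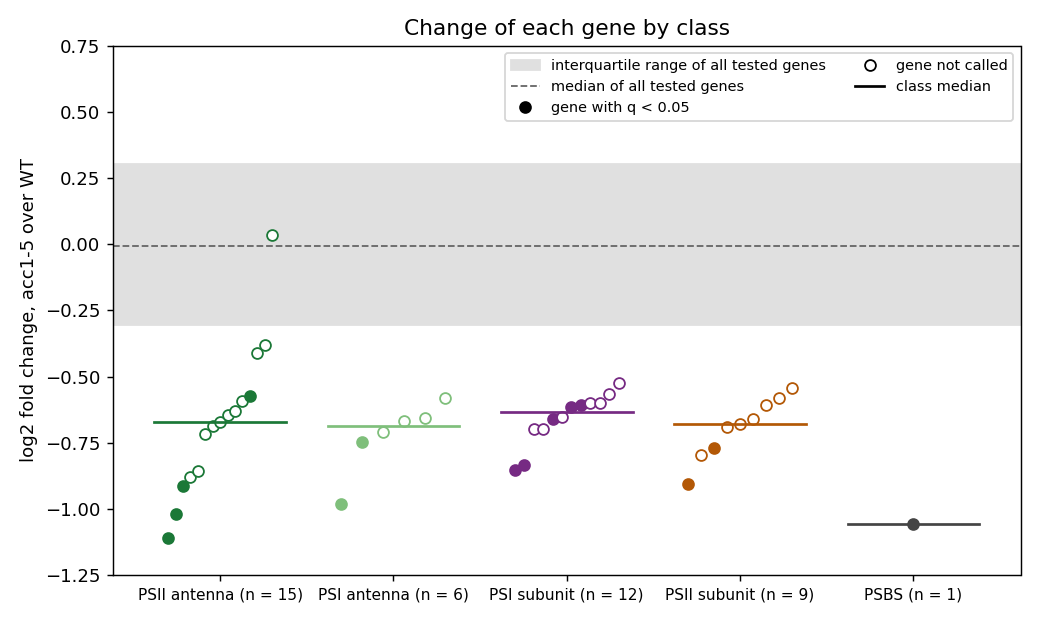
Log2 ratio of acc1-5 over WT for each gene, by class, with filled circles for genes at q < 0.05, open circles for genes not called and a line at the class median; the grey band is the interquartile range of all tested genes. The medians of the classes with more than 1 gene lie between -0.69 and -0.63, and LHCB1.4 is the only gene inside the grey band.

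Antenna and subunit genes were lower by nearly the same amount. Of the 21 LHCB and LHCA genes 6 fell, and of the 21 PSA and PSB genes 7 fell, with median log2 ratios of -0.67 and -0.66. The summed level of the antenna genes was 33740 FPKM in WT and 21517 FPKM in acc1-5, and that of the subunit genes 33650 FPKM and 20992 FPKM. The ratio of antenna to subunit transcripts was therefore 1.00 in WT and 1.03 in acc1-5. No error was computed for this ratio, and the antenna sum includes LHCB1.3 and LHCB1.5, at 7928 and 3952 FPKM in WT with wide bounds. After quantile normalization the median log2 ratios were -0.46 for the antenna and -0.36 for the subunits. In the deposited values the spread differed. The log2 ratios ran from -1.11 to 0.03 in the antenna genes and from -0.91 to -0.52 in the subunit genes. The share of genes that fell was 26.7% for LHCB, 33.3% for LHCA, 41.7% for PSA and 22.2% for PSB, against 9.04% of all tested genes and 21.4% of those at 100 FPKM or more. With 1 value per genotype no test between the classes was made, and genes of a class are not replicates.

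Genes of photosystem I and photosystem II were lower by similar amounts as well. Of the 18 photosystem I genes 7 fell, or 38.9%, with a median log2 ratio of -0.66. Of the 25 photosystem II genes, PSBS included, 7 fell, or 28%, with a median of -0.68. Over all tested genes 9.04% fell, and at 100 FPKM or more 21.4% fell. After quantile normalization the medians were -0.35 for photosystem I and -0.46 for photosystem II. The summed level was 25378 FPKM in WT and 16087 FPKM in acc1-5 for photosystem I, and 43053 and 26922 FPKM for photosystem II. Photosystem II transcripts thus outweighed those of photosystem I 1.70-fold in WT and 1.67-fold in acc1-5. Within photosystem II the ratio of antenna to subunit transcripts was 1.54 in WT and 1.60 in acc1-5, and within photosystem I it was 0.481 and 0.484.

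Summed over all 43 genes the level was 68431 FPKM in WT and 43009 FPKM in acc1-5, or 7.52% and 5.06% of the FPKM of all transcripts in the tables. The order of the genes by level was almost the same in both genotypes, with a Spearman's rho of 0.99 across the 43 genes, given as a description since genes are not independent samples. LHCB1.3, PSBR, LHCB1.5, LHCB5, PSBO1 and LHCB1.2 led in WT and LHCB1.3, LHCB1.5, PSBR, PSBO1 and LHCB5 in acc1-5, and neighbours in these orders had overlapping bounds. Among the 20 genes with the highest level in each genotype, 6 of the 43 stood in WT and 3 in acc1-5. Among the top 100 genes the numbers were 30 and 23. The 4 genes with a main transcript below 100 FPKM in WT were LHCA5, LHCA6, LHCB4.3 and LHCB7. They were lower to a similar degree as the other 39, with median log2 ratios of -0.72 and -0.66.

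Whether a gene was called went along with the width of its bounds as well as with its log2 ratio. The half-width of the bounds as a share of the level, averaged over both genotypes, had a median of 41.5% in the 14 genes that fell and 52.0% in the 29 not called. The genes that fell had a median log2 ratio of -0.84 and a median WT level of 831 FPKM, and those not called had -0.65 and 1945 FPKM. LHCB1.2, LHCB5 and PSBR, for example, had log2 ratios between -0.88 and -0.79 with wide bounds and were not called, while PSAE2, PSAH1 and LHCB4.3 were called at log2 ratios between -0.62 and -0.58. Across the 43 genes the relative half-width correlated with the WT level (Spearman's rho 0.71) and with the q-value (rho 0.73), and the log2 ratio with the WT level hardly at all (rho 0.05). These values are descriptions, since the bounds and the q-values come from the same fit. In WT the median half-width was 49.1% for the 43 genes and 40.2% for all tested genes. For tested genes with a mean of at least 100 FPKM it was 35.8%. Their median WT level was 186 FPKM, against 1260 FPKM for the 43 genes, so these groups were not matched for level.

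**Figure D3:**
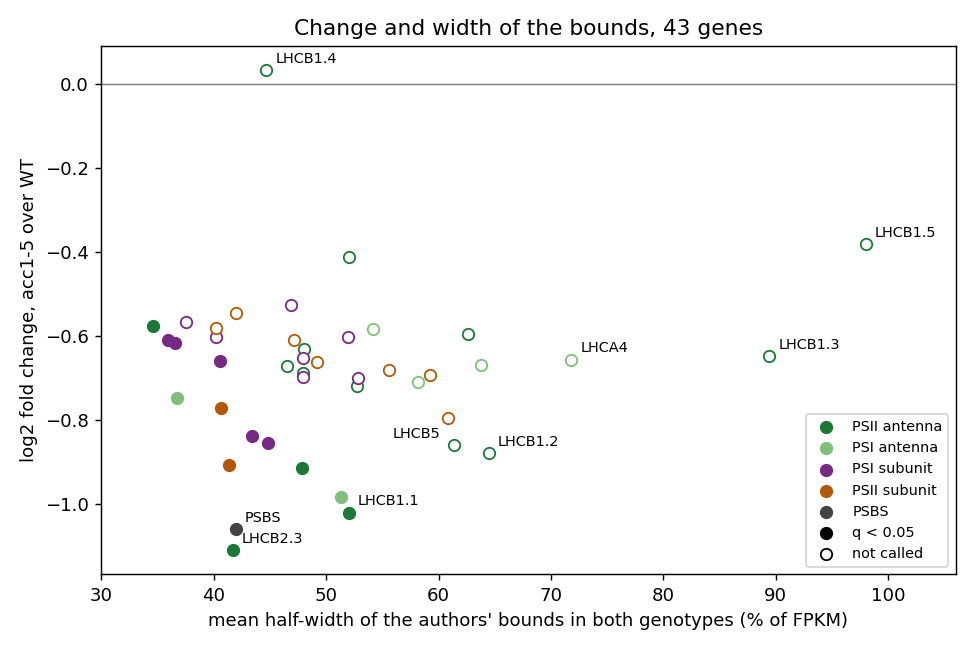
Log2 ratio of acc1-5 over WT against the mean half-width of the authors' bounds in both genotypes, in percent of FPKM, for the 43 genes, coloured by class and filled where q < 0.05. The 14 genes that fell lie at half-widths from 34.6% to 52.0%, and the genes not called reach 98.0% (LHCB1.5).

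At 9 loci the authors' tables place a second gene within the same span as one of the 43, and the printed coordinates of these loci cover both genes. They are those of LHCB1.5, LHCB3, LHCB4.2, LHCB6, LHCA4, LHCA5, PSAE2, PSAH1 and PSBR, of which 4 genes fell. In WT the second gene had between 0.394 and 60.6 FPKM, the latter beside PSAE2, so it was below the level of its neighbour in each case. Besides the 43 main transcripts, 13 further transcripts of 9 of the genes are listed, 2 of them above 10 FPKM in WT and 2 at 0 in both genotypes. Of the 8 that were tested all were lower in acc1-5, and none was called.

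Genes that work with the antenna and the photosystems were also lower. Their lists, too, were chosen with earlier results of these data known. Over 8 lists of such genes outside the 43, with 99 tested genes, 60 fell, 1 rose and 92 were lower, with a median log2 ratio of -0.68. Over all tested genes 9.04% fell, 10.9% rose and 50.7% were lower, and at 100 FPKM or more 21.4% fell. The highest share was seen in thylakoid electron transport, the chain between the photosystems and on to NADPH, where 11 of 12 genes fell and the median log2 ratio was -0.81. The largest decreases among them were in PGRL1A, a protein of cyclic electron flow, from 114 to 59.9 FPKM, in PETC, the Rieske protein of the cytochrome b6f complex, from 1137 to 601 FPKM, and in FD2, the main leaf ferredoxin, from 1517 to 803 FPKM. Of the 4 nuclear genes of the plastid ATP synthase, ATPC1, ATPD and ATPG fell, with log2 ratios of -0.70, -0.64 and -0.76. Of the 4 Rubisco small subunit genes, RBCS1B fell, from 1531 to 799 FPKM, and this share of 25% is near that of all tested genes at 100 FPKM or more. The others had log2 ratios from -1.11 to -0.90 with wide bounds and were not called.

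In chlorophyll synthesis 15 of 26 genes fell, or 57.7%, where 9.04% of all tested genes fell. None rose and all 26 were lower, with a median log2 ratio of -0.64. The largest decreases were in PORA, a light-dependent protochlorophyllide reductase, from 25.7 to 8.01 FPKM, in CRD1, a subunit of the cyclase that closes the fifth ring, from 699 to 348 FPKM, and in CHLH, a subunit of magnesium chelatase, from 244 to 126 FPKM. Of 14 genes for the targeting of antenna proteins, state transitions and the xanthophyll cycle, 11 fell, with a median of -0.65. The largest decreases there were in ZEP, zeaxanthin epoxidase, from 91.1 to 45.1 FPKM, in TAP38, the phosphatase of the mobile antenna, from 174 to 98.3 FPKM, and in CURT1B, which bends thylakoid membranes, from 612 to 349 FPKM. STN7, the kinase of the mobile antenna, fell as well, from 62.8 to 41.5 FPKM.

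Of 12 accessory and assembly factors of the photosystems 10 fell, or 83.3%, where 9.04% of all tested genes fell. Their median log2 ratio was -0.70. PPL1, a PSBP-like protein of photosystem II repair, went from 147 to 66.5 FPKM, PSB27, an assembly factor of photosystem II, from 429.6 to 226 FPKM, and PSB33 from 188 to 99.2 FPKM. Of 8 relatives of the antenna proteins, OHP1, LIL3.1, LIL3.2 and SEP1_LIL4 fell. ELIP1, an early light-induced protein, was the only gene of the 8 lists that rose, from 9.63 FPKM (4.77 to 14.4) to 22.1 FPKM (12.1 to 32.0), with a q-value of 0.000746 in the authors' deposited table. Its paralog ELIP2 had 2.40 and 4.88 FPKM and a q-value of 0.0570 in the authors' deposited table.

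Among 19 tested regulators of photosynthesis genes by light, clock and plastid signals, 5 fell, or 26.3%, against 9.04% of all tested genes, and none rose, with a median log2 ratio of -0.40. They were GLK2, an activator of LHCB and chlorophyll genes, from 52.4 to 33.3 FPKM, the GATA factors GNC, from 19.6 to 8.55 FPKM, and CGA1, from 9.92 to 4.77 FPKM, the blue-light receptor CRY1, from 82.5 to 56.4 FPKM, and the clock factor CCA1, from 8.65 to 4.50 FPKM. GLK1, the partner of GLK2, had 48.6 and 43.1 FPKM, and HY5, a light-signal factor, had 20.1 and 21.4 FPKM. Their q-values in the authors' deposited table were 0.674 and 0.902.

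**Figure D4:**
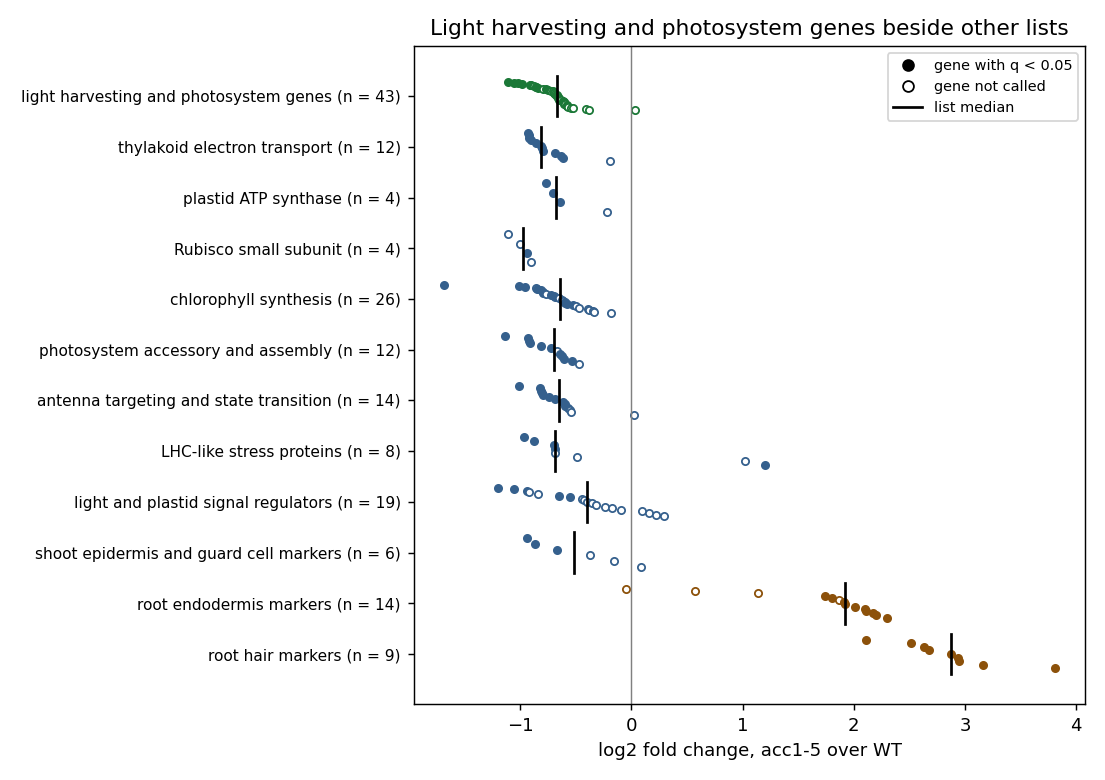
Log2 ratio of acc1-5 over WT for each tested gene of the 43 light-harvesting and photosystem genes, of 8 lists of genes of photosynthesis and its regulation, and of 3 marker lists, with filled circles at q < 0.05 and a line at each median. The medians of the photosynthesis lists lie between -0.97 and -0.40, and those of the root marker lists at 1.92 and 2.87.

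Many markers of other tissues differed between the genotypes too. All 9 root hair markers rose in acc1-5, where 10.9% of all tested genes rose. Their median log2 ratio was 2.87, and their summed level was 20.3 FPKM in WT and 156 FPKM in acc1-5. The largest rises among them were in EXPA7, from 1.44 to 20.1 FPKM, PRP3, from 5.76 to 51.5 FPKM, and LRX1, from 1.59 to 12.3 FPKM, which act in the cell wall of root hairs. Of 14 tested root endodermis and suberin markers 10 rose, with a median of 1.92 and a summed level over the 15 listed of 42.9 FPKM in WT and 107 FPKM in acc1-5. The largest rises there were in CYP86A1 and CYP86B1, enzymes of suberin synthesis, from 3.01 to 14.8 FPKM and from 1.06 to 4.88 FPKM, and in MYB36, a factor of Casparian strip formation, from 1.22 to 5.52 FPKM. SCR, a defining factor of the endodermis, stood at 17.3 and 16.7 FPKM. Of 6 markers of shoot epidermis and guard cells, ATML1, PDF2 and FAMA fell, where 9.04% of all tested genes fell. FDH, MYB60 and KAT1 were not called, with log2 ratios of -0.37, -0.16 and 0.09. The summed level of the 6 was 219.9 FPKM in WT and 157 FPKM in acc1-5. FDH alone held 115 FPKM of it in WT and 89.0 FPKM in acc1-5. No marker of these 3 lists was at 0 in either genotype. The part of a change in tissue proportions in the lower levels of the 43 genes was not tested.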

How the data were processed

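Per the submitters' processing notes, the tools were Bowtie, TopHat 1.4.0, Cufflinks 2.1.1 and Cuffdiff 2.1.1, and the genome build was TAIR10. The authors deposited levels as FPKM, 1 value per genotype from 3 libraries each, with a lower and an upper bound on the same scale. Not given in the sources used here are the way libraries were combined and the confidence level of the bounds. Per the file headers, the authors' comparison holds a log2 fold change, a p-value, a q-value and a test status per transcript. The deposited test statistic, a score, was not used. Columns named ACC1 were taken to be acc1-5, since no other mutant has RNA samples. The deposited q-value equals the Benjamini-Hochberg adjustment over the 25307 tested transcripts within 5.3e-07. For the 43 genes the deposited log2 fold change equals the log2 ratio of the FPKM values within 9.8e-06.

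The 43 genes were matched by name, 1 transcript per gene (the highest mean FPKM), and counts of calls at q < 0.05 were set beside those over the 20509 tested genes. Medians, sums, shares and the width of bounds were computed from the deposited values with Python 3.11.15, pandas 2.3.3 and numpy 2.4.6, and the scripts were tested on simulated data. The planned limma fit needs single libraries and was not applicable. Depth is unknown: at the best step, whole multiples (within 5%) made up 15.3% of 3672 low values in WT and 16.1% of 3768 in acc1-5, so read numbers were not recovered. Members and gene lists were chosen with earlier results of these data known. Named are all genes called, the highest, lowest and most and least changed of each class, those next to the q limit and the paralogs; for lists, all called genes up to 5, otherwise the 3 largest changes. STN7, GLK1, HY5, ELIP2, SCR, FDH, MYB60 and KAT1 were named after their values were seen. Not analysed here were 42 ChIP and input libraries.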

Additional observations from a re-analysis of the deposited data

How the results depend on the processing

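No paired analysis was possible because the tables hold 1 value per genotype, so the replicate block and leaving out single libraries were not run either. A q limit of 0.01 left 5 of the 43 genes called, with 1 each in the LHCB, LHCA, PSA and PSB genes, 2 in the antenna, 2 in the subunits, 2 in photosystem I and 3 in photosystem II. A limit of 0.1 gave 21 of the 43, with 8 PSA genes, 4 PSB genes, 12 subunits and 11 in photosystem II. Over all tested genes 5.7% fell at 0.01 and 11.3% at 0.1. The limit of 0.01 was chosen for the lists after seeing the data. At it, 9 of 26 chlorophyll synthesis, 4 of 12 electron transport and 1 of 4 ATP synthase genes had fallen. The counts were 0 of 4 for Rubisco and 7 of 14 for antenna targeting. For accessory and assembly factors the count was 7 of 12, for relatives of the antenna proteins 4 of 8, and for regulators 4 of 19.

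Quantile normalization brought the median log2 ratio to -0.38 over the 43 genes, -0.48 for LHCB, -0.38 for LHCA, -0.35 for PSA, -0.38 for PSB, -0.84 for PSBS, -0.46 for the antenna, -0.36 for the subunits, -0.35 for photosystem I and -0.46 for photosystem II. Under it LHCB1.3 and LHCB1.5 had a log2 ratio of 0.00, which follows from the method, since each held the same rank in both genotypes, so these values carry no information on a change. With the other scalings 42 of 43 genes were lower. Adjusting p over 1 transcript per gene added PSAH2 and PSAE1 to the calls, and a limit of 1.5-fold removed LHCB4.3. With a mean of at least 10 FPKM, a limit chosen after seeing the data, 11.7% of tested genes fell, against 21.4% at 100 FPKM. Of 171 alternatives for counts, medians and sums, 142 stayed within the limits of 1.5-fold for counts or 0.1 on the log2 scale for medians and sums. No median or sum reversed. Counts were taken in a fixed direction, so they could not reverse. Depth is unknown.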

Other observations

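The plastid-encoded photosystem genes and rbcL, 21 genes in all, are listed at 0 FPKM in both genotypes and were not tested, so the nuclear genes could not be set beside their plastid partners.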
